A study of Mus musculus with 6 samples.

Results

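A set of 10 genes of antigen presentation by major histocompatibility complex (MHC) class I was followed in splenic type-2 conventional dendritic cells (cDC2s) that carry or lack Arhgef1, which encodes a RhoA guanine nucleotide exchange factor. They were taken by symbol from the deposited count table: 4 heavy chain genes (H2-K1, H2-D1, H2-M2 and H2-T23), the light chain gene B2m, the peptide transporter genes Tap1 and Tap2, the tapasin gene Tapbp, the peptidase gene Erap1 and the transactivator gene Nlrc5. All 10 symbols were found among the 14788 of the table, and all 10 were among the 11504 genes tested. RNA-seq had been done on 3 wild-type (WT) libraries and 3 Arhgef1-/- libraries (called knockout here) of cDC2s from the spleen of C57BL/6 mice, from total RNA. No treatment, age or sex is given in the sources used here, nor are the design of the Arhgef1 allele, the sort of the cells or the number of animals behind a library.

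Class I molecules display peptides made in the cell to CD8 T cells. Proteasomes cut proteins into peptides, the TAP1-TAP2 transporter moves these into the endoplasmic reticulum, ERAP1 trims them, and tapasin holds an empty heavy chain with beta-2 microglobulin at the transporter until a peptide binds. The transactivator NLRC5, the interferon-induced factor IRF1 and the NF-kB factors act on class I promoters, and dendritic cells use the same machinery for cross-presentation of material taken up from outside.

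In the knockout, 3 of the 10 genes were lower and 0 were higher by edgeR's quasi-likelihood test with Benjamini-Hochberg adjustment over all genes tested (threshold 0.05), while 9.67% of all genes tested were called in either direction, 4.58% lower and 5.09% higher. DESeq2 and limma-voom also called 3 lower and 0 higher. Over all genes tested DESeq2 called 647 lower and 725 higher, and limma-voom 537 and 549. At an unadjusted p under 0.05 edgeR had 6 lower and 0 higher. Ranked by that value among the 11504 genes tested, Tap1, the last of the 6, stood at place 2280. H2-T23, the first of the 10 genes to miss that threshold, stood at place 2593. At least 2280 genes, counting both directions, thus passed it, and the 6 are to be read beside that number. The 3 genes called after adjustment were H2-M2, at 36.3% of its WT mean, and the classical heavy chain genes H2-K1, at 83.1%, and H2-D1, at 85.2%. The fitted log2 fold change was below 0 for 9 of the 10 genes, with a median of -0.22 over the 10 and 0.00 over all genes tested. In 6 of the 10 all 3 knockout libraries lay below all 3 WT libraries, and in 0 of the 10 they lay above. Over all genes tested those shares were 13.5% and 13.7%, together 27.2%.

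The upstream sequences of the 3 genes called lower are shown with that of B2m, which was not called, because class I promoters are a textbook case of shared control elements. Each is the 250 bases before the gene's most upstream annotated start in RefSeq (build GRCm38.p6, which is mm10), written 5' to 3' on the gene's strand. The windows are chr17:34000348-34000597 on the minus strand for H2-K1, chr17:35262844-35263093 on the plus strand for H2-D1, chr17:37483555-37483804 on the minus strand for H2-M2 and chr2:122147437-122147686 on the plus strand for B2m. Capitals mark every match, on either strand, to GGGATTCCC (an NF-kB site), TTTCNNTT (the core of an interferon regulatory factor site), TGACG (a CREB/ATF half-site), CCAAT (bound by NF-Y) or, for the core promoter element of that name, TATAAA; none of the matches shown overlap each other.
H2-K1: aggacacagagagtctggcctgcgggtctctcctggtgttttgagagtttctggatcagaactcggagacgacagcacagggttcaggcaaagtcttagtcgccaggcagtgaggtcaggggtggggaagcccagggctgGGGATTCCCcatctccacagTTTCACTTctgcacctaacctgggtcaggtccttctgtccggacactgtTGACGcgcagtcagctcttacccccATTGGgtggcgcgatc
H2-D1: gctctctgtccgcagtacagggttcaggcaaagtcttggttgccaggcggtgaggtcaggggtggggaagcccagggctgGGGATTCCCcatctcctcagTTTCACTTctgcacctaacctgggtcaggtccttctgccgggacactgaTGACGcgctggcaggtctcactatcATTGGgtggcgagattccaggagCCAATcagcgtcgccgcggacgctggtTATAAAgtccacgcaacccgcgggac
H2-M2: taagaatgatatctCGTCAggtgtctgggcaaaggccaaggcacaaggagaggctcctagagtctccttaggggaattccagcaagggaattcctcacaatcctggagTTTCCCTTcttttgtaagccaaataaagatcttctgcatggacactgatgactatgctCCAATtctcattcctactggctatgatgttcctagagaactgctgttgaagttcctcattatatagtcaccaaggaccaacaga
B2m: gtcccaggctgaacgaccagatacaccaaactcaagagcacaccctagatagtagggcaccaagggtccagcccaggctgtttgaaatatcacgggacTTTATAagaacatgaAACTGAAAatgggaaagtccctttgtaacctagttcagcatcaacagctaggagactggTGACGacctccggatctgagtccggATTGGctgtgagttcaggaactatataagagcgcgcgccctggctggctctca

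GGGATTCCC was found in the windows of H2-K1 and H2-D1, 110 and 170 bases before the respective start, and in 0.315% of 27025 RefSeq promoter windows of the same length. TTTCNNTT (21.6% of all windows), TGACG (17.8%) and CCAAT (34.5%) also matched in both, and 1 match of each lay 60 bases farther from the start in H2-D1 than in H2-K1, so these 4 matches had the same order and spacing in both. H2-D1 had a further CCAAT match 53 bases before its start. TATAAA, in 13% of all windows, matched 26 bases before the start of H2-D1 and not in the window of H2-K1. At the offset of 60 bases, this match and the further CCAAT match would fall past the annotated start of H2-K1. That stretch lies outside the H2-K1 window and was not searched. Aligned with free end gaps, the H2-K1 and H2-D1 windows were identical at 166 of 190 columns (87.4%). The H2-M2 window was identical to that of H2-K1 at 55.0% of 211 columns. It held no GGGATTCCC, a TTTCCCTT match 142 bases before the start, a CCAAT match 84 bases before it and a CGTCA match 236 bases before it. In B2m the interferon regulatory factor core, the CREB/ATF half-site and the CCAAT box matched 137, 78 and 53 bases before the start, with no GGGATTCCC in the window. Of the 10 genes, 8 were matched to a RefSeq promoter, all but Tap2 and Nlrc5. These matches describe letters, and no binding was measured here.

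Total counts per library ran from 8408325 to 11714365. Each genotype has its own sequencing lane and run name in the labels, so lane, run name and genotype cannot be told apart, and the replicates are not said to be separate animals, so p-values measure only the spread between these libraries. Arhgef1 itself stood at 287, 317 and 246 CPM (counts scaled to library size) in WT and at 115, 128 and 144 CPM in the knockout, 45.5% of WT (log2 fold change -1.13 ± 0.11, SE; edgeR adjusted p = 6.96e-06). These are reads over the whole gene, and which part of it was deleted is not given. Of 11 cDC2 markers tested 5 were lower and 0 higher, with a median log2 fold change of -0.32, 10 values below 0 and 8 with all knockout libraries below all WT libraries. Cd209a went from 234 to 77.6 CPM (-1.59 ± 0.10; edgeR adjusted p = 3.79e-08), Cd4 from 515 to 324 CPM (-0.67 ± 0.12; 0.00138) and Dpp4 from 689 to 516 CPM (-0.42 ± 0.08; 0.00235), each called in all 14 alternatives. Sirpa went from 866 to 695 CPM (-0.32 ± 0.07; edgeR adjusted p = 0.00756, and 0.0555 without WT replicate 1). Itgax (1406 CPM in WT, 1262 CPM in the knockout) and Irf4 (425 and 429 CPM) were not called, and Clec10a was below 1 CPM. The part of these marker changes in the class I values was not tested. Of 20 macrophage markers, 19 were in the table and 18 were tested: 14 were lower (median log2 fold change -1.75), among them Emr1 (-0.88), Trf (-1.42), Hmox1 (-1.86) and Slc40a1 (-2.25). Their summed level was 816 to 1272 CPM in WT and 299 to 469 CPM in the knockout. Vsig4 was at 0 in all knockout libraries, but the filter on low counts left it out of the test, so it has no fold change here. Of other marker lists, monocyte genes were lower in 4 of 7 tested, cDC1 genes in 2 of 11, and B cell genes in 0 of 9, with 0 higher in each. In bulk RNA, fewer cells of a type and less RNA per cell cannot be told apart.

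H2-K1 encodes one of the classical heavy chains that present peptides to CD8 T cells (ENSMUSG00000061232.16, protein coding, chr17:33996017-34000347, minus strand, mm10). In WT replicates 1, 2 and 3 its level was 2304, 2107 and 2138 CPM, and in knockout replicates 1, 2 and 3 it was 1775, 1907 and 1758 CPM. The groups did not overlap: the highest knockout library lay below the lowest WT library. The means were 2183 ± 106 CPM for WT and 1814 ± 81.8 CPM for the knockout (SD, n = 3 each), and the log2 fold change was -0.27 ± 0.07 (95% interval -0.40 to -0.13; edgeR adjusted p = 0.0145). The adjusted p was no longer under 0.05 when some libraries were left out: it was 0.0956 without WT replicate 1, 0.0518 without knockout replicate 1 and 0.0552 without knockout replicate 3, with log2 fold changes of -0.23, -0.25 and -0.24.

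H2-D1 encodes the other classical heavy chain of this strain (ENSMUSG00000073411.11, protein coding, chr17:35262730-35267499, plus strand). It stood at 1455, 1314 and 1380 CPM in the WT libraries and at 1167, 1198 and 1171 CPM in the knockout libraries. The 3 knockout values lay close together and below every WT value. The mean went from 1383 ± 70.7 to 1179 ± 16.7 CPM (SD, n = 3 each), with a log2 fold change of -0.23 ± 0.07 (95% interval -0.37 to -0.09; edgeR adjusted p = 0.0378). This call was lost without WT replicate 1 (-0.19, adjusted p = 0.185), WT replicate 3 (0.0877) or knockout replicate 1 (0.0968), 2 (0.0641) or 3 (0.0885), and also with total counts in place of TMM scaling (-0.20, 0.0617) and with the replicate number as a block (-0.23, 0.0805). The ratio of H2-K1 to H2-D1 CPM was 1.58, 1.6 and 1.55 in WT and 1.52, 1.59 and 1.5 in the knockout, with overlapping groups.

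H2-M2 encodes a nonclassical heavy chain of the H2-M group (ENSMUSG00000016283.13, protein coding, chr17:37480851-37483552, minus strand), and its log2 fold change was the lowest of the 10. WT libraries held 1488, 703 and 905 reads and knockout libraries 481, 352 and 322 reads. In CPM the values were 143, 80.9 and 107 in WT and 56.0, 36.4 and 27.5 in the knockout. WT replicate 1 was highest and knockout replicate 3 lowest, and every WT library lay above every knockout library. The mean was 110 ± 30.9 CPM for WT and 39.9 ± 14.6 CPM for the knockout (SD, n = 3 each). The log2 fold change was -1.47 ± 0.22 (95% interval -1.93 to -1.02; edgeR adjusted p = 2.48e-04). It was called under all 14 alternatives run, with values from -1.79 to -1.24. The summed macrophage markers had their highest value in WT replicate 1 (1272 CPM) too, and stood at 966 and 816 CPM in WT replicates 2 and 3 and at 469, 299 and 310 CPM in the knockout. Whether they take part in the fall of H2-M2, H2-K1 and H2-D1 was not tested.

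H2-T23 encodes Qa-1, a nonclassical heavy chain read by CD94-NKG2 receptors (ENSMUSG00000067212.8, protein coding, chr17:36029773-36032855, minus strand). Its level was 154, 132 and 136 CPM in WT and 119, 125 and 120 CPM in the knockout. The groups did not overlap, with 141 ± 11.5 CPM against 121 ± 3.28 CPM (SD, n = 3 each). The log2 fold change of -0.22 ± 0.10 (95% interval -0.43 to 0.00) did not pass the test, with an edgeR adjusted p of 0.226, nor under any of the 14 alternatives.

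**Figure D1:**
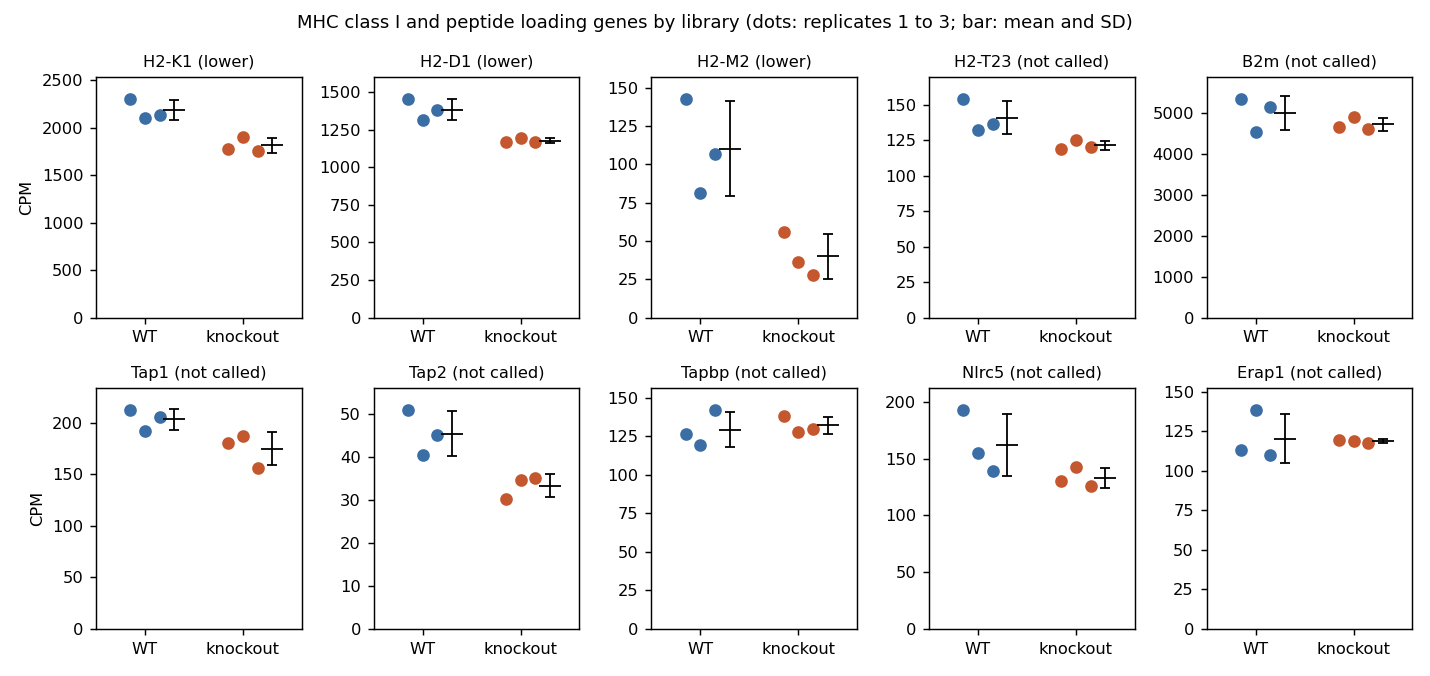
Level in CPM (vertical axis, from 0, with its own scale in each panel) of each of the 10 genes in the 3 WT libraries (blue) and the 3 knockout libraries (red). Points are replicates 1 to 3 from left to right, the bar beside them is the mean with its SD, and the panel title gives the edgeR call. For H2-M2 the WT libraries sit between 80.9 and 143 CPM and the knockout libraries between 27.5 and 56.0 CPM.

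Counts of near-identical heavy chain genes can be split between copies, so the heavy chains were also summed. The sum over the 17 heavy chain symbols in the table was 4532, 4049 and 4271 CPM in WT and 3500, 3696 and 3542 CPM in the knockout, 4284 ± 242 against 3579 ± 103 CPM (SD, n = 3 each), or 83.6% of WT, and the groups did not overlap. H2-K1 made up 51.0% ± 1.0 of that sum in WT and 50.7% ± 0.988 in the knockout, and H2-D1 32.3% ± 0.173 and 32.9% ± 0.483. The share of H2-T23 was 3.29% in WT and 3.39% in the knockout. The share of H2-M2 was 3.15%, 2.0% and 2.50% over the WT libraries, against 1.6%, 0.985% and 0.775% over the knockout libraries, again with no overlap. Of all 50-base stretches in the annotated transcripts, 9.63% of those of H2-K1, 12.8% of those of H2-D1 and 13.6% of those of H2-T23 also occur in another gene's transcripts, chiefly H2-Q10, H2-Q1 and H2-T-ps. For H2-M2 this share was 1.61%. How such reads were counted is not given, so the values of single heavy chains other than H2-M2 are less certain. The sum avoids this only if shared reads were split between copies, and not if they were dropped.

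B2m encodes beta-2 microglobulin, the light chain that every classical and nonclassical heavy chain above pairs with (ENSMUSG00000060802.8, protein coding, chr2:122147686-122153083, plus strand). The WT libraries stood at 5353, 4555 and 5155 CPM and the knockout libraries at 4670, 4921 and 4606 CPM. All 3 knockout values lay inside the WT range. The means of 5021 ± 416 and 4732.5 ± 166 CPM (SD, n = 3 each) gave a log2 fold change of -0.09 ± 0.06 (95% interval -0.22 to 0.05; edgeR adjusted p = 0.477). It was -0.036 without WT replicate 1 and -0.15 without WT replicate 2. B2m shares none of its 50-base stretches with another gene. Patl2, on the opposite strand, spans the whole of it in the annotation but had only 3 to 23 counts per library.

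**Figure D2:**
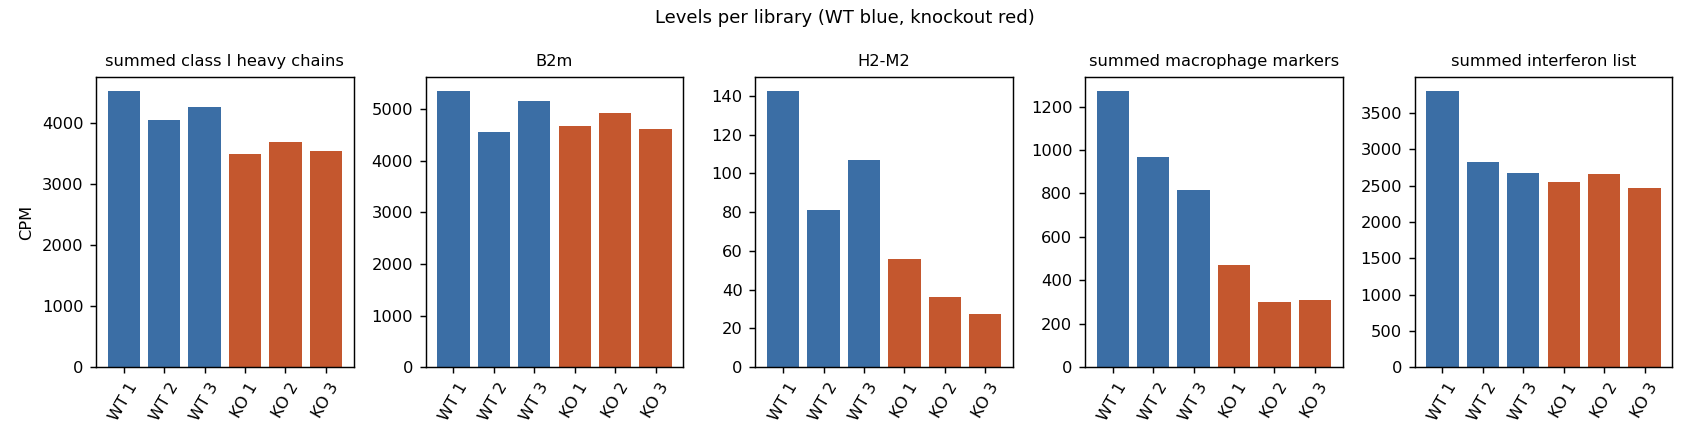
CPM (vertical axes, from 0) in each of the 6 libraries for the summed heavy chains, B2m, H2-M2, the summed macrophage markers and the summed interferon response genes. Each bar is 1 library (WT blue, knockout red): the heavy chain sum is 4049 to 4532 CPM in WT and 3500 to 3696 CPM in the knockout, while the B2m ranges overlap, and WT replicate 1 is the tallest bar in all 5 panels.

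For both subunits of the peptide transporter every knockout value lay below every WT value, and neither gene passed the test. Tap1 (ENSMUSG00000037321.17, chr17:34187553-34197225, plus strand) stood at 212, 192 and 205 CPM in WT and at 181, 187 and 157 CPM in the knockout, a log2 fold change of -0.22 ± 0.10 (95% interval -0.42 to -0.01; edgeR adjusted p = 0.189). Tap2 (ENSMUSG00000024339.12, chr17:34203527-34216321, plus strand) stood at 50.8, 40.3 and 44.9 CPM in WT and at 30.3, 34.6 and 35.0 CPM in the knockout. Its mean of 33.3 ± 2.62 CPM in the knockout was 73.4% of the 45.3 ± 5.25 CPM in WT (SD, n = 3 each). The log2 fold change of Tap2 was -0.45 ± 0.16 (95% interval -0.77 to -0.12; edgeR adjusted p = 0.0830), the SE being 0.16 against 0.07 for either classical heavy chain. Its adjusted p ran from 0.0573 to 0.318 over the 14 alternatives, and for Tap1 from 0.134 to 0.459. Without knockout replicate 3 the value of Tap1 was -0.14. Psmb9, on the opposite strand, overlaps Tap1 by 212 bases in the annotation and had 2521 to 3747 counts per library. The ratio of Tap1 to Tap2 CPM was 4.18, 4.77 and 4.57 in WT and 5.97, 5.39 and 4.48 in the knockout, with overlapping groups.

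Tapbp, the gene of tapasin (ENSMUSG00000024308.15, chr17:33915899-33929292, plus strand), was the only 1 of the 10 with a fitted value above 0. It stood at 127, 119 and 142 CPM in WT and at 138, 128 and 130 CPM in the knockout, so that the knockout range lay inside the WT range. The log2 fold change was 0.03 ± 0.10 (95% interval -0.19 to 0.25; edgeR adjusted p = 0.909), and it was -0.024 without WT replicate 2. Zbtb22, on the same strand, overlaps Tapbp by 3422 bases in the annotation and had 72 to 157 counts per library.

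Erap1, which trims peptides in the endoplasmic reticulum (ENSMUSG00000021583.7, chr13:74639568-74693201, plus strand), stood at 113, 138 and 110 CPM in WT and at 120, 119 and 118 CPM in the knockout. Its log2 fold change was -0.02 ± 0.11 (95% interval -0.25 to 0.22; edgeR adjusted p = 0.948), and its sign turned with total counts in place of TMM (0.013) and without WT replicate 2 (0.091). The 3 knockout values lay inside the WT range, with an SD of 1.01 CPM against 15.5 CPM in WT. Cast, on the opposite strand, overlaps Erap1 by 834 bases in the annotation and had 570 to 1026 counts per library.

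Nlrc5, the transactivator of class I genes (ENSMUSG00000074151.13, chr8:94434356-94527272, plus strand), stood at 193, 155 and 139 CPM in WT and at 130, 143 and 126 CPM in the knockout. Knockout replicate 2 lay above WT replicate 3, so the groups overlapped. The mean went from 162 ± 27.6 to 133 ± 8.52 CPM (SD, n = 3 each). Its log2 fold change of -0.29 ± 0.12 (95% interval -0.53 to -0.04) did not pass the test (edgeR adjusted p = 0.149). Over the 14 alternatives it ran from -0.38 to -0.14, the latter without WT replicate 1, and was called in 0. For the 7 genes not called, a fall of the size seen in H2-K1 lay inside the 95% interval of H2-T23, Tap1, Tap2 and Nlrc5, and outside that of B2m, Tapbp and Erap1.

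**Figure D3:**
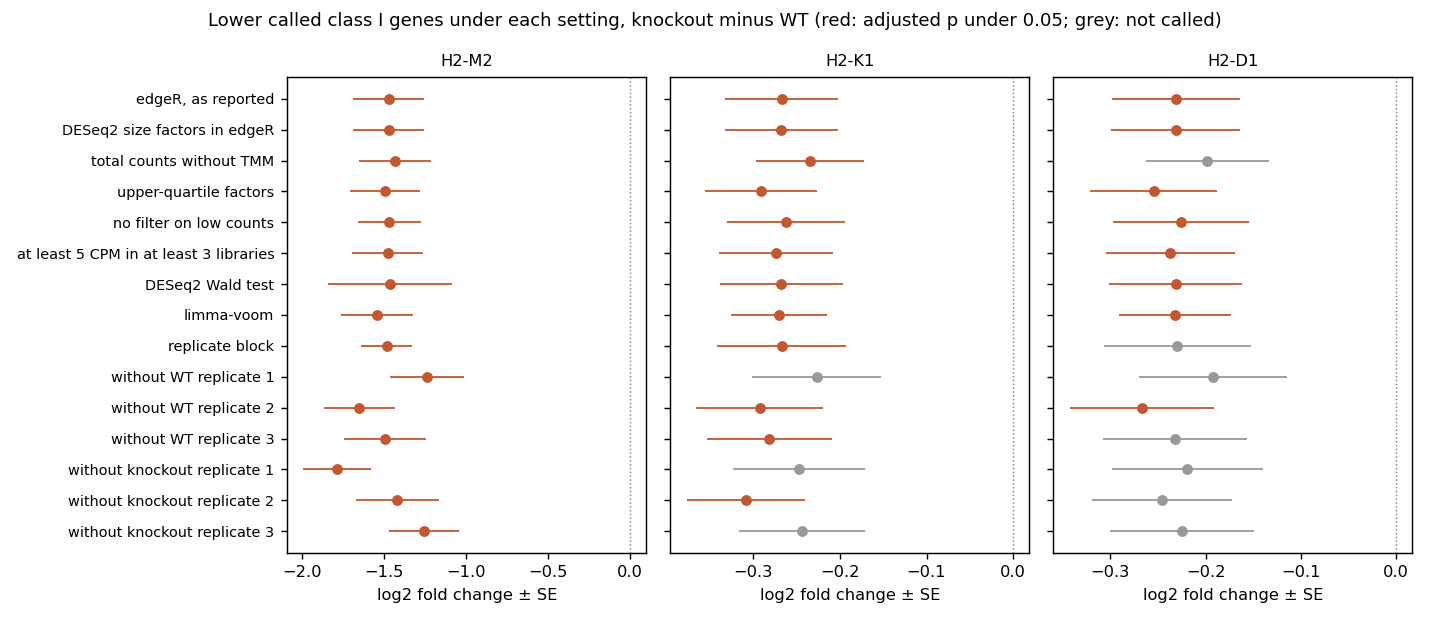
Log2 fold change, knockout minus WT, with its SE (horizontal axes) for H2-M2, H2-K1 and H2-D1 as reported and under the 14 alternatives (1 row each). Red points have an adjusted p under 0.05 and grey points do not: H2-M2 is called in all 14 alternatives, H2-K1 in 11 and H2-D1 in 7.

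Per kilobase of exon, which allows levels of different genes to be compared, the light chain far exceeded the heavy chains. In WT the means were 5838 CPM per kilobase for B2m, 743 for H2-K1 and 536 for H2-D1, with no overlap between neighbours. H2-M2 followed at 71.0 CPM per kilobase (52.2 to 91.9 over the libraries), overlapping H2-T23 at 48.8. Below these were Tap1 at 37.1 and Tapbp at 35.6, which overlapped, then Nlrc5 at 19.1 and Erap1 at 16.5, which also overlapped, and Tap2 at 12. In the knockout H2-M2 had moved from the 4th to the 7th place, at 25.8 CPM per kilobase (17.7 to 36.1), a range that overlapped those of Tap1 at 31.9 and Tapbp at 36.4. The knockout order of the others was B2m at 5503, H2-K1 at 617, H2-D1 at 457, H2-T23 at 42.0, Tapbp, Tap1, and then Erap1 at 16.3, Nlrc5 at 15.7 and Tap2 at 8.80. With the longest protein-coding transcript as the length, a choice made after the data were seen, WT H2-T23 was at 95.7 and H2-M2 at 71.0. Tap1 was then at 68.8, close to H2-M2, and Nlrc5 and Erap1 were at 21.4 and 21.3. The place of H2-M2 thus depends on the length used, and the knockout order was not computed with this length. The 10 genes took 0.879% to 0.985% of all counts in WT and 0.826% to 0.887% in the knockout.

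**Figure D4:**
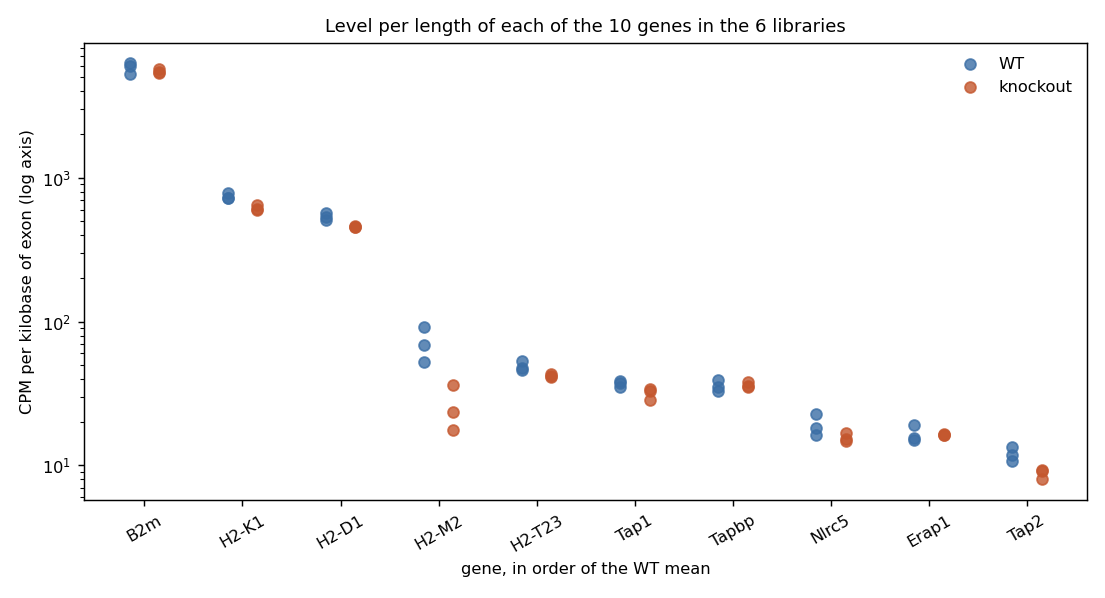
CPM per kilobase of exon (vertical axis, log scale) of the 10 genes, ordered by the WT mean, in the 3 WT libraries (blue) and 3 knockout libraries (red). B2m is near 5838 in WT and Tap2 near 12, and H2-M2 is the gene whose WT points (52.2 to 91.9) and knockout points (17.7 to 36.1) are farthest apart on the log scale.

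Most of the genes lie in the MHC on chromosome 17, and the 3 that were called are spread along it. Between Tapbp and H2-M2 (chr17:33915899-37483552) 111 genes were tested, of which 10 were lower and 4 higher, with a median log2 fold change of -0.05. Leaving out the 7 class I genes studied here left 104, of which 7 were lower and 4 higher, with a median of -0.01. Over all genes tested 4.58% were lower and 5.09% higher. Within 500 kilobases of H2-M2, 7 other genes were tested and 0 were called by edgeR, DESeq2 or limma-voom, with 0 also at an unadjusted edgeR p under 0.05. They include the heavy chain genes H2-M3, 206 kilobases away (-0.20 ± 0.11; adjusted p = 0.320; -0.055 without WT replicate 3 and -0.32 without WT replicate 2), and H2-M5, 491 kilobases away (0.87 ± 0.65; adjusted p = 0.475).

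The other genes of the class I pathway were called in both directions. Of 71 further pathway genes in the table, 64 were tested, of which 3 were higher and 3 lower, with a median log2 fold change of -0.05, beside 5.09% higher and 4.58% lower over all genes tested. Among heavy chains, 12 were tested and the 3 lower were the 3 already described, with a list median of -0.16. The others included H2-T24 (-0.18 ± 0.16; edgeR adjusted p = 0.563; -0.069 without knockout replicate 1 and -0.39 without knockout replicate 3) and H2-Q8 (-0.15 ± 0.21; edgeR adjusted p = 0.754). Among class I-like chains 1 of 5 was lower: Hfe, which pairs with beta-2 microglobulin and regulates iron, stood at 103, 107 and 99.7 CPM in WT and at 60.9, 72.4 and 44.3 CPM in the knockout (-0.81 ± 0.15; edgeR adjusted p = 0.00195). Cd1d1, which presents lipids, had a mean of 38.9 CPM in WT against 28.7 CPM in the knockout and was not called (-0.44 ± 0.16; edgeR adjusted p = 0.102). Procr (-0.33; -0.75 and called without knockout replicate 3) and Mr1 (-0.47) were not called either, and the list median was -0.44.

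Among the 9 genes of the loading complex and its chaperones, 1 was higher and 0 were lower, with a median of 0.03. That gene was Canx, the gene of calnexin, which folds new heavy chains: it stood at 312, 314 and 293 CPM in WT and at 416, 413 and 373 CPM in the knockout, with no overlap (0.39 ± 0.08; edgeR adjusted p = 0.00567). Calr, the gene of the related chaperone calreticulin, had means of 156 and 191 CPM and did not pass (0.29 ± 0.09; edgeR adjusted p = 0.0611; 0.0267 by DESeq2 and 0.0394 with total counts). Pdia3 (0.09) and Tapbpl (-0.19) were not called. Among 10 cytosolic and endoplasmic reticulum peptidases, 1 was higher: Prep, a prolyl peptidase, at 32.6, 34.4 and 30.3 CPM in WT and 59.6, 53.7 and 40.2 CPM in the knockout (0.65 ± 0.17; edgeR adjusted p = 0.0180). Prep lost its call without WT replicate 1 (adjusted p = 0.0650) or 3 (0.0738) and without knockout replicate 1 (0.0722) or 2 (0.0698). Npepps (0.26), Cndp2 (-0.30) and Blmh (-0.25) were not called.

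The immunoproteasome and its activator showed 0 calls by edgeR, DESeq2 or limma-voom among 6 genes, with a median of 0.02; at an unadjusted p under 0.05 edgeR had 1 higher and 1 lower. Psmb9, a catalytic subunit whose gene neighbours Tap1, had means of 369 and 314 CPM (-0.23 ± 0.09; edgeR adjusted p = 0.119), and Pomp, an assembly factor, 171 and 212 CPM (0.31 ± 0.11; edgeR adjusted p = 0.0796; 0.0497 with total counts). Psme1 (0.08) and Psme2 (0.12), the activator subunits, had intervals that included 0. Among 18 genes of cross-presentation 1 was lower, with a median of -0.06. It was Cybb, the NADPH oxidase subunit that limits acid proteolysis in phagosomes, at 649, 614 and 612 CPM in WT and 490, 461 and 447 CPM in the knockout (-0.42 ± 0.08; edgeR adjusted p = 0.00147). Its partner Rac2 had a value of 0.22 and was not called, nor were Derl1 (-0.30) and Snap23 (-0.24).

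Of 15 transcription factors of class I genes, Nlrc5 included, 1 was higher and 1 lower, with a median of 0.03. Nfkb1, the gene of the NF-kB p105/p50 subunit, was higher: 475, 531 and 526 CPM in WT against 655, 645 and 712 CPM in the knockout (0.39 ± 0.08; edgeR adjusted p = 0.00353). The groups did not overlap, and the call held in all 14 alternatives. Nfyb, a subunit of NF-Y, had means of 35.0 and 45.6 CPM and was not called (0.38 ± 0.16; edgeR adjusted p = 0.150). Irf1, the gene of the activator named above, was the 1 lower gene and went from 132 ± 9.78 to 101 ± 12.9 CPM (SD, n = 3 each; -0.38 ± 0.12; edgeR adjusted p = 0.0480). It was called in 7 of the 14 alternatives, and the adjusted p without 1 library reached 0.183 (knockout replicate 3); it was lost also without any single WT replicate (0.147, 0.0735 and 0.177), without knockout replicate 1 (0.0858), with total counts (0.0727) and with the replicate block (0.0724). Rfxank, which NLRC5 and CIITA both need on promoters, was at 7.78 CPM in WT against 3.17 CPM in the knockout and was not called (-1.30 ± 0.43; edgeR adjusted p = 0.0646; 0.0322 without WT replicate 3 and 0.0388 by DESeq2).

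**Figure D5:**
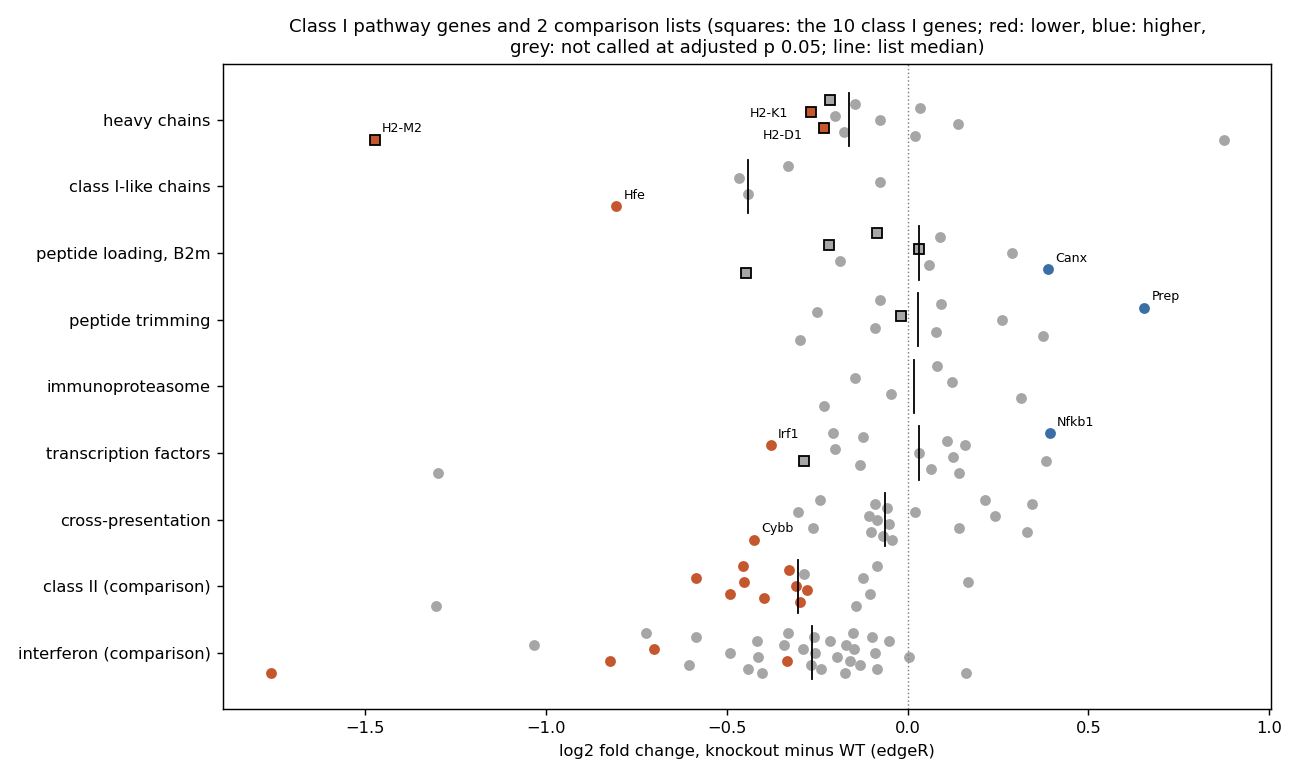
Log2 fold change, knockout minus WT (horizontal axis), of each tested gene in 7 class I lists and 2 comparison lists (rows). Squares are the 10 class I genes studied here and circles other genes; red is lower, blue higher and grey not called; vertical lines are list medians, which run from -0.44 for class I-like chains to 0.03 for transcription factors and for the loading complex and chaperones. H2-M2, at -1.47, lies far left of the other heavy chains.

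MHC class II and interferon response genes are given for comparison; differences between lists were not tested. Of 16 class II genes 9 were lower and 0 higher, with a median log2 fold change of -0.30. H2-Eb1 (-0.45 ± 0.07), H2-Eb2 (-0.59 ± 0.09), H2-Ob (-0.40 ± 0.07) and Ctss (-0.46 ± 0.07) had the smallest p-values. Ciita, the class II counterpart of Nlrc5, was not called (-0.08 ± 0.07; edgeR adjusted p = 0.551). Of 34 interferon response genes tested 4 were lower and 0 higher, with a median of -0.26: Ifit3 (-0.82), Ifi44 (-1.76), Oas3 (-0.70) and Ifih1 (-0.33). None of the 4 was called without WT replicate 1, at -0.58, -1.0, -0.32 and -0.25. Calls were also lost without knockout replicate 1 (Oas3, -0.67), knockout replicate 2 (Ifi44, -1.78, and Oas3, -0.69) and knockout replicate 3 (Ifit3, -0.76, Ifi44, -1.57, and Oas3, -0.75). Ifih1 was called in 7 of the 14 alternatives and was not called when WT replicate 2 (-0.36) or any knockout replicate was left out (-0.31, -0.37 and -0.31), with total counts (-0.30) and with the replicate block (-0.33). The summed interferon list stood at 3802, 2824 and 2671.5 CPM in WT and at 2551, 2660 and 2460 CPM in the knockout. WT replicate 3 and knockout replicate 2 were close, without overlap, and the list had its highest value in WT replicate 1, the library that also had the highest H2-K1, H2-D1, H2-M2, H2-T23, B2m, Tap1, Tap2 and Nlrc5. The part of the interferon genes in these values was not tested.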

How the data were processed

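The authors deposited unnormalized whole-number read counts by gene symbol for the 6 libraries. Tools named in the submitters' processing notes are HTSeq, STAR and DESeq2, with the build mm10 and no versions. For the annotation, strand setting and filters the sources used here give nothing. Groups and replicate numbers came from the titles. The genes and lists were chosen with earlier results of these data known.

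Counts were fitted on the whole table with edgeR 4.0.16 (R 4.3.3; filterByExpr, TMM factors 0.977 to 1.02, genotype only; glmQLFit, glmQLFTest), with Benjamini-Hochberg adjustment over 11504 genes and a threshold of 0.05. The common biological coefficient of variation was 0.189. Intervals of log2 fold changes cover 95%. CPM used TMM-scaled library sizes over tested genes; lengths, positions and shared 50-base stretches came from GENCODE vM21, which is on mm10. Without a known strand setting, overlapping and antisense genes cannot be told apart. H2-K1, H2-D1 and H2-M2 overlap no annotated gene. A930015D03Rik, on the opposite strand, spans H2-T23 and had 18 to 47 counts per library. Nlrc5 overlaps 9330175E14Rik, on the opposite strand, which had 14 to 70 counts per library. Also overlapping are Mir7072 with Nlrc5, and Gm20496 and Gm15821 with Tap2, which are not among the counted symbols. Promoter windows were aligned with Biopython 1.88.

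Named genes were the 10 genes, Arhgef1, up to 4 genes with the smallest p in each other list, and every called gene of the class I lists; 1 gene of the transcription and interferon lists is not reported here and was left out of both; Ciita, Itgax, Irf4, Clec10a and Vsig4 were added after their values were seen. Marker lists other than those of macrophages and cDC2s are given by counts; pDC and T cell lists had 1 higher gene each of 5 tested, NK cell genes 1 lower of 2, and neutrophil (1 tested) and erythroid (2 tested) genes 0 calls by edgeR, DESeq2 or limma-voom. Alternatives were other scalings, filters, DESeq2 1.42.0, limma-voom 3.58.1, a replicate block and leaving out each library. On counts simulated for this comparison, with 11547 genes tested, the fit recovered 50% of genes at a fold of 1.5, 92% at 2 and 34% at 0.667. No library pair was identical; pairs of 1 group differed with a chi-square of 8.16 to 13.9 per degree of freedom.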

Additional observations from a re-analysis of the deposited data

How the results depend on the processing

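As reported, 586 genes were higher and 527 lower. Without 1 library these counts ran from 310 to 583 and from 264 to 489, and the number of the 10 genes called lower ran from 1 to 3: it was 1, H2-M2, when WT replicate 1 was left out, and likewise for knockout replicate 1 and for knockout replicate 3. With total counts in place of TMM 692 genes were higher and 431 lower, and with upper-quartile factors 500 and 583; the median of all genes then moved to 0.03 and -0.02. The median of the 10 genes stayed between -0.26 and -0.17 in all settings, and 0 of the 10 were higher in any. Values that changed sign were those of Erap1 with total counts (0.013) and without 1 library (-0.078 to 0.091), Tapbp without 1 library (-0.024 to 0.103) and H2-Q8 without 1 library (-0.414 to 0.051); the cause was not tested. Whether same-numbered WT and knockout libraries are paired is not given. Their deviations from the group means correlated at 0.04, -0.03 and -0.03. Such deviations within 3 libraries are tied to each other, so these values cannot settle the pairing. With the replicate block 496 genes were higher, 449 lower and 2 of the 10 genes were lower, H2-D1 no longer being called. Per kilobase of the longest protein-coding transcript, a length chosen after the data were seen, WT H2-K1 was at 1348 CPM and H2-D1 at 658. In the simulation 50% of genes changed 1.5-fold and 34% of those at a fold of 0.667 were recovered; smaller changes, the size of all values of the 10 genes other than H2-M2, were not simulated.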

Other observations

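Receptors that bind class I molecules, and genes of related families, were looked up from a list put together after the data were seen. Their calls are thus a description of these libraries. Such genes numbered 10 among the counted symbols and 7 were tested. Of the 7, 3 were lower and 0 higher in the knockout, beside 4.58% lower and 5.09% higher over all genes tested. Klrd1, the CD94 chain that pairs with NKG2 receptors to read Qa-1, stood at 171, 186 and 186 CPM in WT and at 143, 109 and 113 CPM in the knockout (-0.57 ± 0.11, SE; edgeR adjusted p = 0.00320). Klrd1 is also the 1 lower gene of the NK cell marker list. Its partners Klrc1 and Klrc2 were below 1 CPM in every library. Lilrb3, an older symbol used for the inhibitory paired immunoglobulin-like receptor of classical class I, stood at 296, 292 and 291 CPM in WT and at 240, 226 and 240 CPM in the knockout (-0.31 ± 0.08; edgeR adjusted p = 0.0230). Klra17, of the Ly49 family that holds many class I receptors, stood at 178, 154 and 176 CPM in WT and at 41.7, 41.0 and 16.1 CPM in the knockout (-2.38 ± 0.23; edgeR adjusted p = 6.96e-06). Groups did not overlap for any of the 3, and over all genes tested 13.5% had all knockout libraries below all WT libraries. Lilrb4 (-0.31), Klra2 (-0.70), Cd8a (-0.17) and Cd160 (0.01) were not called. Lilrb4 was listed as an inhibitory immunoglobulin-like receptor and not as a receptor of class I. Genes of the Klra family are close copies of each other, and how their shared reads were counted is not given.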
